A study of Mus musculus with 8 samples.

Results

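The genes described here are 10 mouse genes that encode the NF-κB/Rel transcription factor subunits (Nfkb1, Nfkb2, Rel, Rela and Relb), the IκB proteins that act on them (Nfkbia, Nfkbib, Nfkbie and Nfkbid) and the ubiquitin-editing enzyme A20 (Tnfaip3). They were taken from a named list by matching the symbols to the Ensembl identifiers of the deposited tables, and the rule itself used no measured value. All 10 were found among the 47069 genes present in both tables, and all 10 passed the expression minimum that left 12273 genes to test.

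NF-κB factors are dimers of Rel-domain subunits that wait in the cytoplasm, bound by IκB proteins or held as the long precursors made by Nfkb1 and Nfkb2. In the canonical pathway, signals from the antigen receptor, TNF receptors or Toll-like receptors activate a kinase complex that marks IκB for destruction and frees dimers of Rela, Rel and p50. In the non-canonical pathway, the kinase NIK drives processing of the Nfkb2 precursor and frees Relb with p52. A20, IκBα and several other brakes are themselves NF-κB target genes, which closes negative feedback loops. In regulatory T cells (Tregs), c-Rel is known for its part in the induction of Foxp3, and Rela and c-Rel for the upkeep of effector Tregs.

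RNA was measured in 2 populations of lymph node Tregs from C57BL/6 mice of 6 to 8 weeks of age. Every animal carried both the 35EbiT reporter, seen as Thy1.1, and the Blimp1-GFP knock-in, and both populations were CD4+, CD25+ and low for CD62L. Ebi3-Treg were Thy1.1+ and Blimp1-, and Blimp1-Treg were Thy1.1- and Blimp1+, with 4 libraries each. The groups are therefore defined by reporter signal at the time of sorting, and cells carrying neither or both reporters were not part of the comparison. Nothing in the labels says that libraries came from separate animals or whether animals were pooled, so the p-values given here rest on between-library spread alone, which may be technical. Values are FPKM (fragments per kilobase of gene, scaled to the mapped fragments of the library), so levels of different genes can be set side by side. Such comparisons are approximate, since the gene lengths used are not given and both libraries numbered 2 showed a pattern over gene length (below).

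Replicates 1 and 2 of both populations stood in a first table and replicates 3 and 4 in a second. The depth behind the FPKM values ranged from 13.3 to 31.3 M fragments (M, mega) per library. The fewest reads behind any of the 80 values of these genes were 1824, for Rel in Blimp1-Treg 4, which is a counting error of 2.34%, so that counting noise was small beside the differences between libraries. The sorted genes bore out the labels: Ebi3, an IL-35 chain, was at 29.6 ± 11.7 FPKM in Ebi3-Treg and 7.67 ± 2.84 in Blimp1-Treg, (SD, n = 4 each), and Prdm1, which encodes Blimp1, at 1.94 to 4.33 FPKM and 52.2 to 121 FPKM. Foxp3, the defining Treg factor, was at 182 FPKM or more in every library. Xist was at most 0.0750 FPKM in the first table and 18.5 to 24.4 FPKM in the second, so table and sex of the mice cannot be told apart.

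NF-κB dimers bind the κB consensus, a run of G, a purine, a free stretch, pyrimidines and a closing C, and its matches in the start regions of these genes are shown because several of the genes are known as NF-κB targets. Windows from 250 bases before to 50 bases after a RefSeq transcription start (GRCm38.p6) were at hand for 8 of the 10 genes and were searched on both strands. A match was found in at least 1 window of 6 of the 8, namely Tnfaip3, Rel, Nfkbia, Nfkbie, Nfkbid and Nfkb2, and in none of Rela and Nfkbib. For comparison, 9.55% of all genes with such a window held a match. The stretches below run 5′ to 3′ on the strand of the gene, and capitals mark the match or overlapping matches.
Tnfaip3, chr10:19015411-19015560, minus strand: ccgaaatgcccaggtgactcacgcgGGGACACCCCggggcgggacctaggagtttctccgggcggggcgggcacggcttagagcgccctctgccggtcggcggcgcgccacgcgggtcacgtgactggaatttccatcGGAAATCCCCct
Rel, chr11:23771026-23771086, minus strand: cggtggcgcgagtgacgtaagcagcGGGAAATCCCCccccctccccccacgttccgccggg
Nfkbia, chr12:55492648-55492701, minus strand: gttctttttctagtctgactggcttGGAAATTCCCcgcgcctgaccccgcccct
Nfkbie, chr17:45555569-45555628, plus strand: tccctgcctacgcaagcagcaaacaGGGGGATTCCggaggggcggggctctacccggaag
Nfkbid, chr7:30422156-30422259, plus strand: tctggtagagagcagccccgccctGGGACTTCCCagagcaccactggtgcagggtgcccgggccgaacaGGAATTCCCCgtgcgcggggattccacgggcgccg
Nfkb2, chr19:46304693-46304722, plus strand: gtcacGGGAATTCCCCccctcggggggccg
Nfkbib, which had no match, chr7:28766645-28766704, minus strand: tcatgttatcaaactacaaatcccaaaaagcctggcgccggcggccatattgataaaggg

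Counted back from the start, the Tnfaip3 matches lay at -125 and -12, the Rel pair at -92 and -91, the Nfkbia match at -29 and the Nfkbie match at -106. The Nfkbid matches lay at -226 and -181 of 1 of its 3 listed starts. The Nfkb2 pair lay at -39 and -38, inside annotated exons, and all 3 of its windows held a match. A further match of the same window, at -11, lay outside the printed stretch. Of the printed Tnfaip3 bases, 13 also lay in an annotated Tnfaip3 exon. A match describes the sequence only, and binding was not measured here.

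Tnfaip3 was the only gene of the 10 that passed the test, and it was higher in Ebi3-Treg. Every gene of the 10 had a fitted difference above 0, that is, towards Ebi3-Treg, from 0.14 on the log2 scale for Nfkbib to 0.69 for Tnfaip3. The median of the 10 was 0.32, beside 0.07 over all tested genes, of which 59.2% were above 0. The test was limma on log2(FPKM + 1) with the table as a term and a Benjamini-Hochberg adjusted p under 0.05 over all tested genes, and by it 1 of 10 was called higher and 0 lower, against a background of 3.37% of all tested genes called higher and 2.93% called lower. A block on the replicate number changed the call of 3 genes: 4 of the 10 were called higher, namely Tnfaip3, Nfkbid, Rel and Relb, against a background of 13.5% called higher. With the block in replicates 1 and 2 alone it was 6 of the 10, against 14.0%, and without a block 0 genes of any kind were called there. With both libraries numbered 1 left out it was 2 of the 10, against 9.06%. In the second table the numbers showed no pairing (r = -0.08 between same-numbered libraries within the table), so the block has no such basis there. This limit applies to every value given with the replicate block. Within both tables, the lower Ebi3-Treg library stood above the higher Blimp1-Treg library for 5 of the 10, namely Tnfaip3, Rel, Nfkbid, Rela and Nfkb1, against 11.7% of all tested genes.

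**Figure D1:**
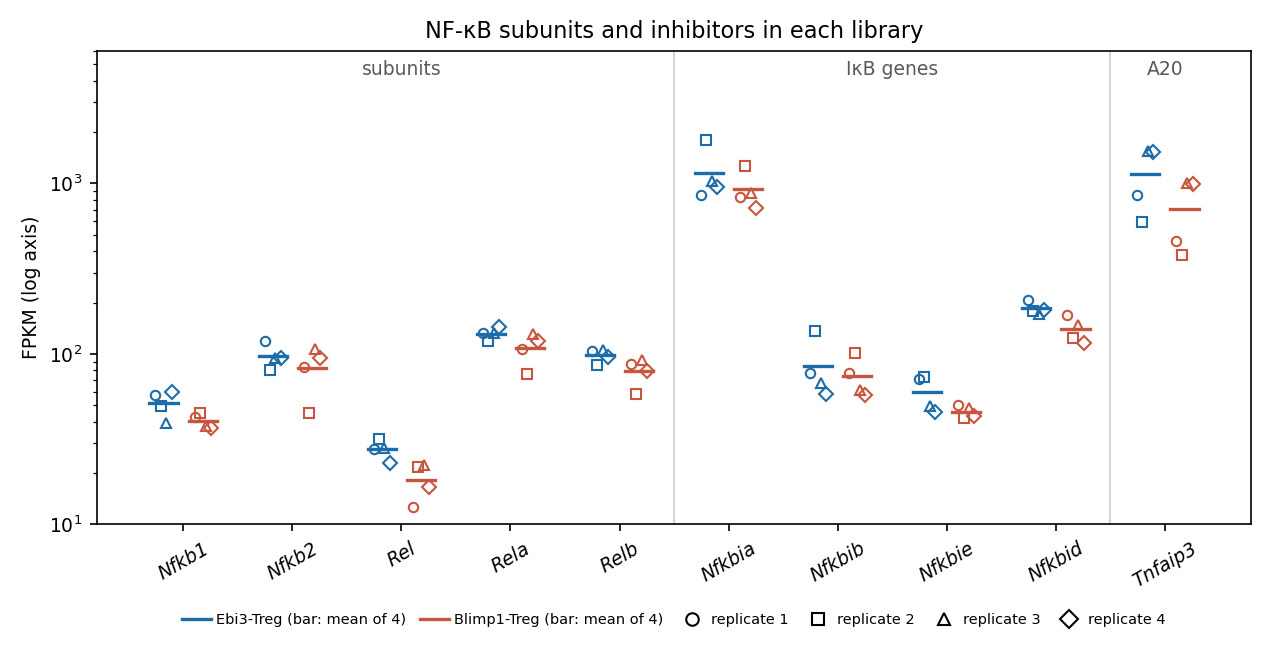
FPKM on a log axis (y) of the 10 genes (x, grouped as subunits, IκB genes and A20) in each of the 8 libraries, coloured by population and with marker shape for the replicate number. Bars give the mean of the 4 libraries; Rel and Nfkbid separate all 4 Ebi3-Treg from all 4 Blimp1-Treg libraries, and Tnfaip3 splits by table as well as by population.

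Of the subunits, Rel showed the widest separation. It encodes c-Rel, the subunit best known for antigen-receptor responses of lymphocytes. Rel was at 27.8, 31.7, 28.1 and 22.9 FPKM in Ebi3-Treg 1 to 4 and at 12.6, 21.6, 22.3 and 16.6 FPKM in Blimp1-Treg 1 to 4. Every Ebi3-Treg library thus lay above every Blimp1-Treg library, although the lowest of the former and the highest of the latter were close. Among all tested genes 6.63% had the same complete separation. For Rel the fitted difference was 0.59 on the log2 scale (SE 0.21, 95% interval 0.10 to 1.08), a ratio of 1.51, with an adjusted p of 0.172 that became 0.0229 with the replicate block. The difference was 0.81 in replicates 1 and 2 and 0.38 in replicates 3 and 4.

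Rela encodes p65, the main activating subunit of canonical dimers, and was the most abundant subunit transcript. It was at 132, 119, 132 and 144 FPKM in Ebi3-Treg and at 107, 76.0, 131 and 119 FPKM in Blimp1-Treg. The populations overlapped across tables but not within a table, and Ebi3-Treg 3 exceeded Blimp1-Treg 3 by only 0.02 on the log2 scale. Rela differed by 0.31 on the log2 scale (SE 0.15, 95% interval -0.05 to 0.66, adjusted p = 0.346).

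Relb, the partner of p52 in the non-canonical pathway, was at 104, 86.4, 105 and 96.0 FPKM in Ebi3-Treg and at 87.1, 58.1, 92.3 and 79.2 FPKM in Blimp1-Treg. Each Ebi3-Treg library lay above the Blimp1-Treg library of the same number, and only Ebi3-Treg 2 fell short of the highest Blimp1-Treg library of its table. Relb differed by 0.32 on the log2 scale (SE 0.16, adjusted p = 0.364), and the replicate block gave an adjusted p of 0.0400.

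Nfkb1 and Nfkb2 encode the p105 and p100 precursors, which yield p50 and p52. Nfkb1 was at 57.2, 49.5, 39.1 and 59.9 FPKM in Ebi3-Treg and at 42.7, 45.3, 37.7 and 36.9 FPKM in Blimp1-Treg. Blimp1-Treg spanned a narrow range and Ebi3-Treg a wider one, and Nfkb1 differed by 0.32 on the log2 scale (SE 0.16, adjusted p = 0.346). Nfkb2 was at 119, 80.1, 94.2 and 95.3 FPKM in Ebi3-Treg and at 83.4, 44.9, 107 and 94.4 FPKM in Blimp1-Treg. Its fitted log2 fold change of 0.29 (SE 0.25, adjusted p = 0.671) averaged 0.67 in replicates 1 and 2 with -0.09 in replicates 3 and 4, so that its direction differed between tables. The interaction of population and table did not pass the test for Nfkb2 (unadjusted p = 0.155) or for any other of the 10. No tested gene passed that interaction test at an adjusted p under 0.05 in limma, and 1.65% had an unadjusted p under 0.05.

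The classical IκB proteins hold dimers in the cytoplasm. Nfkbia, which encodes IκBα, had the highest mean of the 10 in both populations, at 1159 ± 427 FPKM in Ebi3-Treg and 925 ± 239 in Blimp1-Treg (SD, n = 4 each). By library it was at 860.2, 1791, 1031 and 954 FPKM in Ebi3-Treg and at 832, 1269.9, 874 and 722 FPKM in Blimp1-Treg. Replicate 2 stood above the other 3 libraries in both populations, and the populations overlapped. Nfkbia differed by 0.30 on the log2 scale (SE 0.25, adjusted p = 0.649).

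Nfkbib encodes IκBβ and differed least, by 0.14 on the log2 scale (SE 0.20, 95% interval -0.32 to 0.60, adjusted p = 0.835). It was at 77.1, 136, 67.1 and 58.0 FPKM in Ebi3-Treg and at 77.4, 101, 61.9 and 57.3 FPKM in Blimp1-Treg. The populations lay within a few FPKM of each other except in replicate 2, and without Ebi3-Treg 2 the log2 fold change was -0.04.

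Nfkbie encodes IκBε, which is best known for holding c-Rel and Rela dimers. It was at 71.8, 73.3 and then 49.8 and 45.9 FPKM in Ebi3-Treg 1 to 4, and at 50.4, 41.9, 47.9 and 43.2 FPKM in Blimp1-Treg. In the first table both Ebi3-Treg libraries lay well above Blimp1-Treg, while in the second all 4 libraries were close. Nfkbie differed by 0.65 on the log2 scale in replicates 1 and 2 and 0.07 in replicates 3 and 4 (0.36 in the joint fit, SE 0.16, adjusted p = 0.282), with an unadjusted interaction p of 0.0724.

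Nfkbid encodes the nuclear protein IκBNS, an atypical IκB induced by antigen-receptor signals that works with c-Rel in Foxp3 induction. It was at 208, 179.6, 172 and 182 FPKM in Ebi3-Treg and at 169.8, 124, 148 and 116 FPKM in Blimp1-Treg. As with Rel, all 4 Ebi3-Treg libraries lay above all 4 Blimp1-Treg libraries, which makes 2 of the 10 genes beside the 6.63% of all tested genes. The log2 fold change of Nfkbid was 0.42 (SE 0.15, 95% interval 0.08 to 0.76, adjusted p = 0.169), with 0.41 and 0.43 in the first and second table. With the replicate block, the adjusted p for Nfkbid was 0.0204.

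Tnfaip3 encodes A20, which removes and adds ubiquitin chains on signalling adaptors and so shuts off NF-κB activation. It was at 855, 594, 1557 and 1520.3 FPKM in Ebi3-Treg and at 458, 383, 1008 and 994 FPKM in Blimp1-Treg. Each Ebi3-Treg library stood above both Blimp1-Treg libraries of its table, but the first-table Ebi3-Treg libraries lay below the second-table Blimp1-Treg libraries. The log2 fold change of Tnfaip3 was 0.69 (SE 0.15, 95% interval 0.34 to 1.05, adjusted p = 0.0360), a ratio of 1.62 (95% interval 1.27 to 2.06). By replicate number the log2 difference was 0.90, 0.63, 0.63 and 0.61. In replicates 3 and 4 alone Tnfaip3 was the 1 gene of the 10 called higher, with an adjusted p of 0.0116, against 5.51% of all tested genes.

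The call of Tnfaip3 was lost without most single libraries: its adjusted p was 0.122 without Ebi3-Treg 3, 0.114 without Ebi3-Treg 4, and 0.0711, 0.0743, 0.119 and 0.131 without Blimp1-Treg 1, 2, 3 and 4, while Tnfaip3 was called without Ebi3-Treg 1 or 2 (0.0424 and 0.0348) and with both libraries numbered 1 left out (0.00433). The difference itself stayed between 0.57 and 0.78 in all 8 of these fits. Without the table term the adjusted p was 0.608, since the mean of Tnfaip3 in the second table was 2.22 times that in the first.

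**Figure D2:**
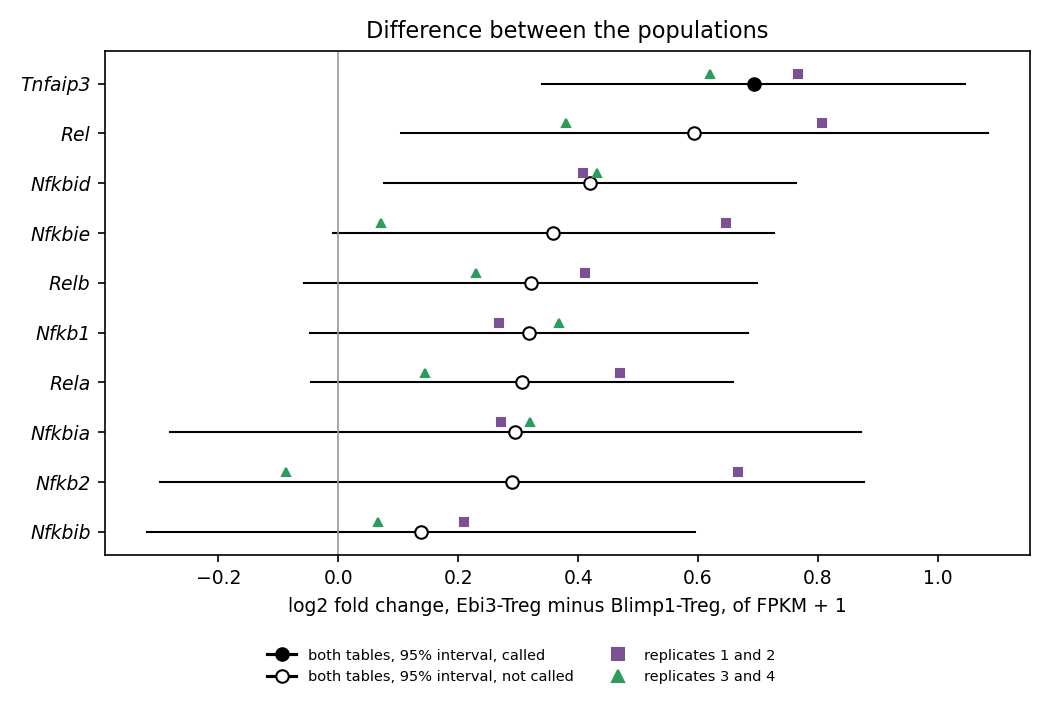
Fitted log2 fold change, Ebi3-Treg minus Blimp1-Treg, of FPKM + 1 for each of the 10 genes (circles, filled where the adjusted p was under 0.05, with 95% intervals as lines), and the difference within replicates 1 and 2 (squares) and 3 and 4 (triangles). All circles lie to the right of 0, only that of Tnfaip3 is filled, and the second-table difference of Nfkb2 lies left of 0 at -0.09.

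Counted by replicate number, Ebi3-Treg exceeded its same-numbered Blimp1-Treg library in all 4 pairs for 8 of the 10 genes, against 28.0% of all tested genes. The exceptions were Nfkb2 in replicate 3 and Nfkbib in replicate 1. Within each table taken alone, the log2 fold change was above 0 for 9 of the 10, all but Nfkb2, against 43.0% of all tested genes above 0 in both. An unadjusted p under 0.05 with a higher level in Ebi3-Treg was reached by 3 of the 10 (Tnfaip3, Nfkbid and Rel), against 11.0% of all tested genes.

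The order of the mean levels was alike in both populations. Nfkbia and Tnfaip3 led, at rank 43 and 47 of all genes in Ebi3-Treg and at rank 63 and 89 in Blimp1-Treg, and their ranges overlapped each other. The order of this pair differed by table, with Nfkbia above Tnfaip3 in all 4 libraries of the first table and below it in all 4 of the second. Nfkbid came next and Rela after it in both populations, and the ranges of this pair overlapped in Blimp1-Treg but not in Ebi3-Treg. Relb, Nfkb2 and Nfkbib followed with ranges that overlapped each other. In Ebi3-Treg the range of Relb lay below that of Rela, and in Blimp1-Treg they overlapped. Nfkbie and Nfkb1 came next with ranges that overlapped each other, and that of Nfkbie met that of Nfkbib in Ebi3-Treg only. Rel was the lowest of the 10, at 27.6 ± 3.59 FPKM in Ebi3-Treg and 18.3 ± 4.54 in Blimp1-Treg (SD, n = 4 each), and lay below the range of Nfkb1 in both populations.

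Ratios between the genes within a library overlapped between populations. Rela exceeded Rel by 3.75 to 6.29 times in Ebi3-Treg (median 4.73) and by 3.52 to 8.47 times in Blimp1-Treg (median 6.52). The ratio of Nfkbia to Rela, an inhibitor over its main target, ran from 6.52 to 15.1 in Ebi3-Treg (median 7.20) and from 6.05 to 16.7 in Blimp1-Treg (median 7.23). Replicate 2 was the high end in both. The ratio of Relb to Rela was the steadiest, at 0.666 to 0.794 in Ebi3-Treg and 0.664 to 0.815 in Blimp1-Treg. The ratio of Tnfaip3 to Nfkbia, both feedback inhibitors, ran from 0.332 to 1.59 in Ebi3-Treg and from 0.301 to 1.38 in Blimp1-Treg, and replicate 2 was the low end in both.

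Replicate 2 also stood apart over gene length. Among tested genes with over 8 kb of annotated exon sequence, the median log2 deviation from the mean of the 8 libraries was -0.44 in Ebi3-Treg 2 and -0.51 in Blimp1-Treg 2, against -0.01 to 0.23 in the other 6, and for genes of up to 2 kb it was 0.30 and 0.17. Replicate 2 was the lowest library of both populations for Nfkb2, Rela, Relb and Tnfaip3, whose exons span 4584, 3072, 3885 and 7226 bases, and the highest for Nfkbia (1610 bases) and Nfkbib (2169 bases). Rela, Relb and Nfkbib, however, fall among genes of 2000 to 4000 bases, where the deviation was 0.07 in Ebi3-Treg 2 and -0.09 in Blimp1-Treg 2. Nfkb1 (12061 bases) was highest in Blimp1-Treg 2 and Rel (7466 bases) was highest in Ebi3-Treg 2, and neither was lowest in replicate 2 of the other population. Nfkbie (3045 bases) was highest in Ebi3-Treg 2 and lowest in Blimp1-Treg 2, and Nfkbid (2346 bases) was neither in replicate 2. With both libraries numbered 2 left out, all 10 log2 fold changes stayed above 0, with a median of 0.23, and Tnfaip3 was again the 1 gene called higher (adjusted p = 0.00391), against 9.04% of all tested genes. The part of this length pattern in single-library values was not tested.

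**Figure D3:**
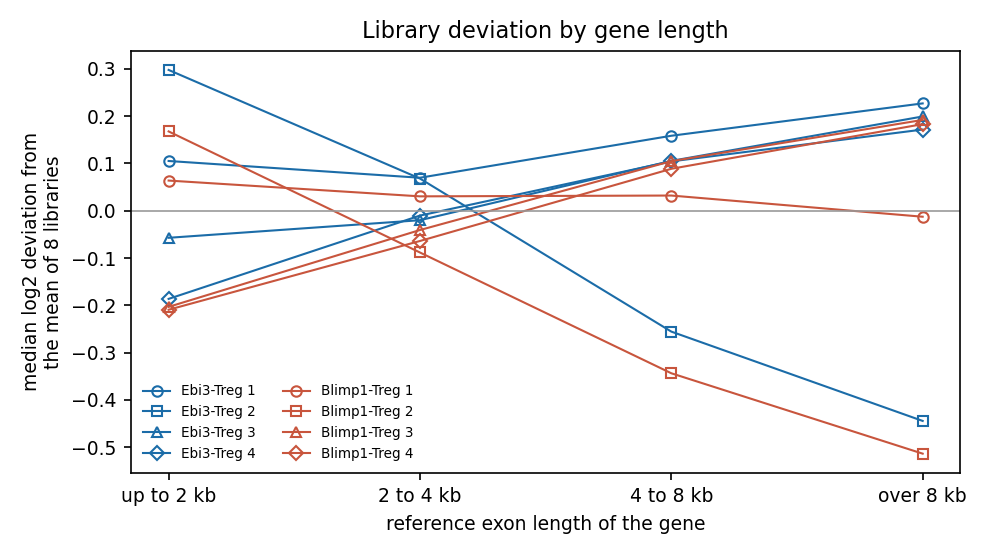
Median log2 deviation of each library from the mean of the 8 libraries (y axis) for tested genes in 4 bins of annotated exon length in kilobases (x axis), coloured by population and marked by replicate number. Both libraries numbered 2 slope down to -0.44 and -0.51 in the longest genes, and no other library falls below -0.01 there.

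The tables differed for some of the 10 within each population. Both second-table libraries exceeded both first-table libraries in each population for Tnfaip3 and Rela, against 15.0% of all tested genes, and the reverse held for Nfkbib, against 17.1%. Nfkb2 and Nfkbib share annotated exon sequence with genes on the other strand: 299 bases with Psd and 531 with an antisense RNA for Nfkb2, 42 with Sirt2 and 314 with Ccer2 for Nfkbib. Whether counting used the strand is not given in the sources used here, so a part of their values could come from those genes.

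Few genes of the surrounding pathway passed the test, and those that did moved in both directions. The counts of this and the following lists stand beside 3.37% of all tested genes called higher and 2.93% called lower. With the block these shares were 13.5% and 8.94%. Of 11 other IκB genes and A20 partners, 0 were called, and with the replicate block 1 was called higher and 1 lower. The smallest p among them was that of Tnip3, an A20-binding inhibitor, at 4.17 ± 1.54 FPKM in Ebi3-Treg and 8.60 ± 2.22 in Blimp1-Treg (log2 fold change -0.92, adjusted p = 0.0584, 0.0199 with the block). Of 8 tested genes of the IκB kinases, their partner proteins and NIK, 0 were called and 2 were called higher with the block. Ikbke, a non-canonical IκB kinase, was at 137 ± 39.8 and 81.1 ± 31.8 FPKM (log2 fold change 0.81, adjusted p = 0.228, 0.00299 with the block).

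Upstream, 1 of 18 TRAF, IAP and RIP adaptors was called higher and 0 lower (6 and 1 with the block). This was Traf3ip3, a TRAF3-binding protein of lymphocytes, at 318 ± 29.5 FPKM in Ebi3-Treg and 209 ± 28.3 in Blimp1-Treg (log2 fold change 0.61, adjusted p = 0.0333, up to 0.134 when single libraries were left out). Of 9 genes of linear ubiquitin assembly and deubiquitinases, 0 were called and 1 was called higher with the block. This was Usp18, which removes the ubiquitin-like protein ISG15, at 94.8 ± 41.4 and 38.3 ± 31.1 FPKM (log2 fold change 1.49, adjusted p = 0.0658, 0.00191 with the block).

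Of 15 nuclear regulators of NF-κB, 1 was called higher and 0 lower (3 and 1 with the block). Socs1, which in the nucleus takes part in the degradation of p65 and is otherwise a brake on cytokine receptors, was at 197 ± 36.5 FPKM in Ebi3-Treg and 74.6 ± 18.2 in Blimp1-Treg (log2 fold change 1.40, adjusted p = 0.00893). Of 15 TNF receptor family genes that signal to NF-κB, 1 was called higher and 1 lower (4 and 3 with the block). Cd40, the receptor best known on B cells and dendritic cells, was at 15.5 ± 4.82 and 3.09 ± 2.21 FPKM (log2 fold change 2.16, adjusted p = 0.0302). Tnfrsf1b, which encodes TNFR2, was at 353 ± 71.7 FPKM in Ebi3-Treg and 849 ± 267 in Blimp1-Treg (log2 fold change -1.22, adjusted p = 0.0180). Without single libraries the adjusted p reached 0.113 for Cd40 and 0.0809 for Tnfrsf1b. Of 14 tested genes of the Toll and IL-1 receptor route, 1 was called lower and 0 higher (2 and 0 with the block), namely Il1rl1, the IL-33 receptor ST2 (log2 fold change -1.24, adjusted p = 0.0493, up to 0.149 without single libraries).

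Known NF-κB target genes split between the populations. Of 38 tested, 7 were called higher and 0 lower, yet only 15 had a log2 fold change above 0 and their median was -0.10, below the 0.07 of all tested genes. With the replicate block, 11 were called higher and 8 lower, against 13.5% and 8.94% of all tested genes. Lta, which encodes lymphotoxin α, was at 142, 148, 93.6 and 81.4 FPKM in Ebi3-Treg and at 33.5, 24.1, 21.3 and 15.0 FPKM in Blimp1-Treg, with no overlap (log2 fold change 2.27, adjusted p = 0.000455). Myc, the growth-promoting transcription factor, was at 148 ± 29.4 and 50.6 ± 10.9 FPKM (log2 fold change 1.54, adjusted p = 0.00600). Vcam1, an adhesion molecule, was at 7.47 ± 1.47 and 1.87 ± 1.35 FPKM (log2 fold change 1.67, adjusted p = 0.00793). Ebi3 is also on this list and is among the 7 called higher (log2 fold change 1.80, adjusted p = 0.00576). It marks the sort, so its call follows from how the groups were chosen.

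**Figure D4:**
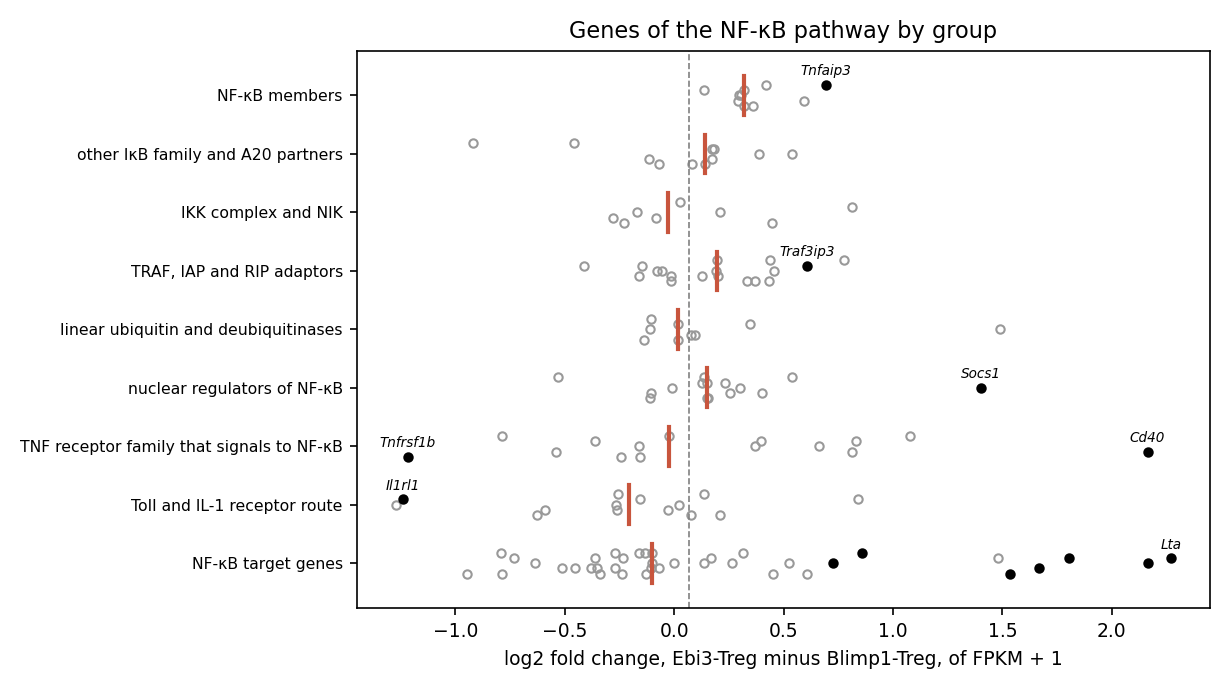
Fitted log2 fold change, Ebi3-Treg minus Blimp1-Treg, of FPKM + 1 (x axis) for each tested gene of the pathway lists (rows); filled points had an adjusted p under 0.05, red bars are list medians and the dashed line is the median of all tested genes, 0.07. The 10 genes cluster around 0.32, whereas the target genes spread from about -1 to over 2 around a median of -0.10.

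Genes of the early response, which are induced by antigen-receptor signals and also by handling of cells, leaned towards Ebi3-Treg. Of 16 genes, 4 were called higher and 0 lower (8 and 0 with the block), 14 had a log2 fold change above 0, and the median was 0.56. Over all tested genes, 3.37% were called higher (13.5% with the block), 59.2% were above 0, and the median was 0.07. Btg2 and Nr4a1, an antiproliferative gene and a nuclear receptor gene, were higher by 0.83 and 0.85, and the AP-1 genes Junb and Fos by 0.73 and 0.61 on the log2 scale (adjusted p = 0.00908, 0.0210, 0.0249 and 0.0360). Their adjusted p reached 0.0535, 0.0927, 0.122 and 0.153 when single libraries were left out. The summed level of the list was 8708 to 11372 FPKM in Ebi3-Treg and 5512 to 7626 FPKM in Blimp1-Treg, with no overlap. Much of that sum came from Junb (3660 to 4834 FPKM in Ebi3-Treg, 2487 to 2878 in Blimp1-Treg) and Fos (1457 to 2402 and 976 to 1405). Each of these also separated all 4 Ebi3-Treg from all 4 Blimp1-Treg libraries, as did 6.63% of all tested genes. The part of the early response in the differences of Tnfaip3, Nfkbid and Rel was not tested.

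**Figure D5:**
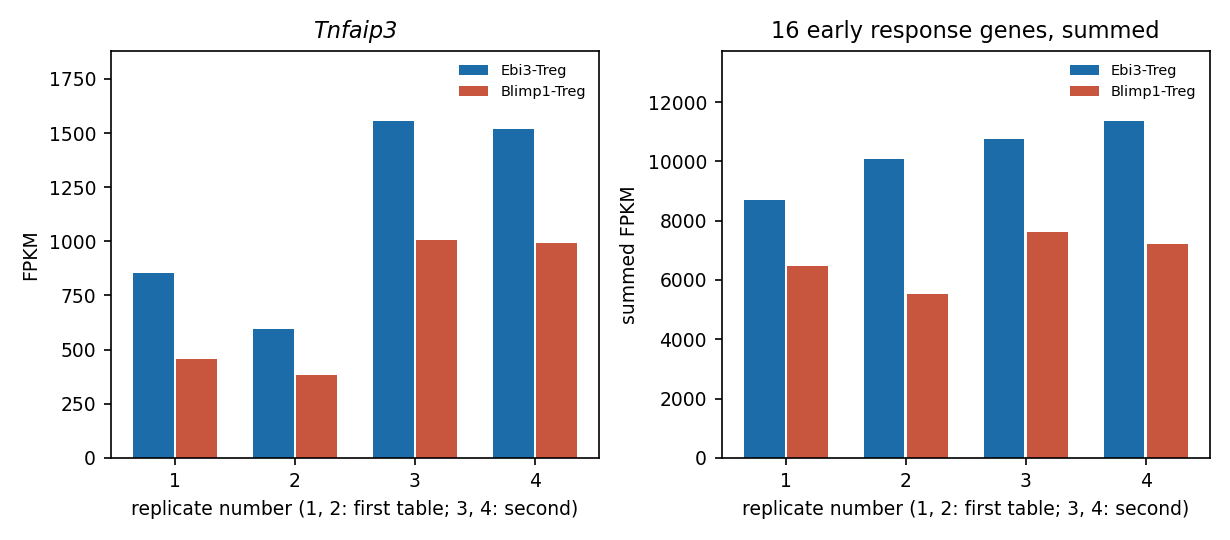
Bars of Tnfaip3 in FPKM (left) and of the summed FPKM of the 16 early response genes (right) by replicate number, 1 bar per library, coloured by population. In both panels the Ebi3-Treg bar is the higher of each pair, and Tnfaip3 is higher in replicates 3 and 4 of each population than in replicates 1 and 2. Junb and Fos carry much of the sum on the right.

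Other cell types could also carry these transcripts, and in bulk RNA fewer cells of a type and less RNA per cell cannot be told apart. The marker counts stand beside 3.37% of all tested genes called higher and 2.93% called lower (13.5% and 8.94% with the block). Over all tested genes 59.2% had a log2 fold change above 0, and the median was 0.07. B cell markers summed to 215 to 970.1 FPKM over 10 genes in Ebi3-Treg and to 181 to 624 in Blimp1-Treg, highest in replicate 1 of both, and 0 of 7 tested were called (2 higher with the block). Of these 7, 5 had a log2 fold change above 0, and the median was 0.26. Cd74, an antigen-presentation gene, was the most abundant B cell marker, at 136 to 667 FPKM in Ebi3-Treg and 125 to 393 FPKM in Blimp1-Treg. Myeloid and dendritic cell markers summed to 175, 128, 23.2 and 32.8 FPKM over 14 genes in Ebi3-Treg and to 46.4, 23.6, 23.5 and 26.1 in Blimp1-Treg, and 0 of 5 tested were called (3 higher with the block). Of these 5, 4 had a log2 fold change above 0, and the median was 1.46. Lyz2, the lysozyme of myeloid cells, made up most of the excess in the first table, at 99.1 and 91.1 FPKM in Ebi3-Treg 1 and 2. Its log2 fold change was 1.79 (adjusted p = 0.0920, 0.0160 with the block). CD8 T and NK cell markers summed to 12.3 to 73.9 and 11.8 to 37.6 FPKM over 7 genes, with Cd8b1, a CD8 chain, the most abundant, and 0 of 4 tested were called. All 4 had a log2 fold change above 0, with a median of 0.48. T cell markers summed to 6877, 10566, 7203 and 7678 FPKM over 8 genes in Ebi3-Treg and to 9756, 13326, 8751 and 9351 FPKM in Blimp1-Treg, lower in Ebi3-Treg for all 4 numbers. Of these 8, 2 had a log2 fold change above 0, the median was -0.31, and 0 were called (2 lower with the block). Among the latter was Trac, the T cell receptor α constant gene and the most abundant (log2 fold change -0.62, adjusted p = 0.0721, 0.00608 with the block). Treg markers summed to 2071 to 3232 FPKM over 9 genes in Ebi3-Treg and to 2270 to 4953 FPKM in Blimp1-Treg, with a median log2 fold change of -0.10, and 2 were called higher, Gpr83 and Nrp1, and 0 lower (4 and 2 with the block). Ctla4, an inhibitory receptor and the most abundant of them, differed by -0.76 on the log2 scale (adjusted p = 0.353, 0.0115 with the block). No marker was at 0 in every library. In replicates 3 and 4, Lyz2 was at 8.00 and 20.4 FPKM in Ebi3-Treg and at 3.74 and 8.44 FPKM in Blimp1-Treg. In these replicates alone Tnfaip3 and Nfkbid differed by 0.62 and 0.43 on the log2 scale (adjusted p = 0.0116 and 0.106 in limma). Nfkbie and Nfkb2 differed by 0.65 and 0.67 in replicates 1 and 2 and by 0.07 and -0.09 in replicates 3 and 4. The part of the marked cell types in the differences of Tnfaip3, Nfkbid, Nfkbie and Nfkb2 was not tested.

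By Pearson correlation of log2(FPKM + 1) over the 8 libraries, the genes most like Tnfaip3 were Zbtb44, Ercc6l2, Gpr174 and Nr3c2, each with r = 0.99. All of them, like Tnfaip3, had a higher mean in the second table, by 1.53, 2.44, 1.65 and 3.56 times, so table and population are both shared by these points. Among the other NF-κB genes, r with Tnfaip3 ran from 0.85 for Rela, 0.71 for Relb and 0.68 for Nfkb2 down to -0.35 for Nfkbia and -0.69 for Nfkbib.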

How the data were processed

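Total RNA of 8 sorted Treg libraries was sequenced after SMART-Seq v4 amplification, per the labels' protocols. The authors deposited FPKM per gene in 2 tables of 47709 and 47681 features, of which 640 and 612 had no Ensembl identifier and were dropped. Bowtie2 2.2.3, TopHat2 2.0.12, HTSeq 0.6.1 and mm9 are named in the submitters' processing notes. The sources used here give neither their settings nor the annotation. Depth was recovered from the steps between low FPKM values. With the reference exon length, reads came out whole within 0.01 for Rel in 7 of 8 libraries and for no other of the 10 genes, so read numbers per gene are approximate, and reads without molecular identifiers give counting error only.

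Genes at 1 FPKM or more in at least 4 of 8 libraries (12273) were fitted as log2(FPKM + 1) by limma 3.58.1 (R 4.3.3) on terms for population and table, using a variance trend and a two-sided Benjamini-Hochberg adjusted p under 0.05. Fold changes are on that scale, which understates changes of low genes. Levels set side by side across tables assume that both were scaled alike. Deviations of same-numbered libraries from their group means correlated at 0.62, 0.89, 0.53 and 0.54, each over the 0.1 at which numbers were treated as pairs, and the blocked value is given where it changes a call. In the second table the crossed numbers correlated as highly (Ebi3-Treg 3 with Blimp1-Treg 4 at 0.56, 4 with 3 at 0.61), and within the table r was -0.08 (0.85 in the first), so there the numbers show a shared table and no pairing within it. The script was tested on simulated data.

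The 10 genes and all lists were chosen with earlier results of these data known. Named were, in each list, up to 4 called genes with the smallest p, or the 1 with the smallest p where none was called, in marker lists the most abundant gene, and the 4 genes most correlated with Tnfaip3. Foxp3, Gpr83, Nrp1 and Xist were named outside this rule, after their values were seen. Names, exon lengths and exon overlaps came from GENCODE and promoter windows from RefSeq (both GRCm38), and no coordinates were taken from the deposited tables. Alternatives covered the pseudocount, filter, table term, replicate block, variance trend, scaling, each table alone and left-out libraries. Results on some items, among them a gene the rule names, are not reported here.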

Additional observations from a re-analysis of the deposited data

How the results depend on the processing

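Of the 10 genes, 1 was called in the reported fit, and 0 without a filter on low values, without the table term, after quantile normalization and in replicates 1 and 2 alone. With the replicate block 4 were called, with the block in replicates 1 and 2 alone 6, and with both libraries numbered 1 left out 2. Leaving out single libraries gave 0 to 1. Over all tested genes the 772 calls became 420 without a filter, 441 without the table term, 2752 with the replicate block, 0 in replicates 1 and 2 alone (707 at an unadjusted p under 0.05 in limma), 1347 in replicates 3 and 4 alone, 2855 with the block in replicates 1 and 2 alone, and 1970 and 1962 with both libraries numbered 1 or 2 left out. Single left-out libraries gave 341 to 771. The interaction of population and table was called for 0 genes, and for 13 with the replicate block. The direction turned for Nfkb2 in replicates 3 and 4 alone (-0.0868 on the log2 scale) and for Nfkbib without Ebi3-Treg 2 (-0.0392, the low end of a range that reached 0.2873 without Ebi3-Treg 1). The other 8 genes stayed above 0 in every alternative. The cause of these changes was not tested. In none of the 20 groups of 4 libraries (10 genes, 2 populations) did a library stand apart by Dixon's criterion. Each group held libraries of both tables, so a difference between the tables widens the range and makes a flag less likely. The criterion therefore says little on the pattern of replicate 2.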
